A study of Mus musculus with 44 samples.

Results

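R-spondins (Rspo1 to Rspo4), their receptors (Lgr4, Lgr5 and Lgr6), the membrane E3 ligases Znrf3 and Rnf43, and the Wnt feedback gene Axin2 were followed in the gastric corpus mucosa. They are 10 of the 31484 genes in the data, and they were chosen by name as one signalling module. Rspo4 was also picked because its level was lower in knockout mice given NTZ, so that comparison chose it and is given here as a description only. Messenger RNA came from biopsies of BalbC mice that were 13 months old, and 44 libraries fell into 4 groups. KO mice lacked the H+/K+ATPase beta subunit, encoded by Atp4b, which parietal cells need to secrete acid, and WT mice were their controls. Mice of both genotypes received NTZ (netazepide, a gastrin receptor antagonist that the labels call YF) or its vehicle PEG. This gave 11 WT/PEG and 9 WT/NTZ libraries, and 13 KO/PEG and 11 KO/NTZ libraries. Libraries, not animals, are counted throughout: the 11 WT/PEG libraries carry 10 animal numbers, since one number stands on a pair of them. The counts of that pair differed by far more than sampling noise (chi-square of 18.3 per degree of freedom, against 5.96 to 95.2 for the 54 other WT/PEG pairs), and no call for a member changed when their counts were summed. More KO/PEG libraries are labelled than the study describes mice for, and all were used as labelled, so the n, SD and p of KO/PEG rest on the labels. No parietal or other cell was isolated, so each library is a mixture of epithelium, stroma and muscle, and fewer cells of a type and less RNA per cell cannot be told apart.

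R-spondins are secreted proteins that amplify Wnt signals. ZNRF3 and RNF43 remove Frizzled Wnt receptors from the cell surface, and an R-spondin bound to an LGR receptor draws these ligases away, so that Frizzled accumulates and beta-catenin signalling rises. AXIN2, a scaffold of the complex that destroys beta-catenin, is itself induced by that signalling, as are LGR5, RNF43 and ZNRF3 in many tissues, so their transcripts are used as readouts of it. In the stomach R-spondin 3 comes mainly from stromal cells at the gland base, and Lgr5 marks antral stem cells and some chief cells of the corpus.

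In GRCm38, Rspo3 lies on the minus strand of chr10:29452416-29535867, Rspo4 on the plus strand of chr2:151842927-151874668, Lgr5 on the minus strand of chr10:115450311-115587780 and Lgr4 on the plus strand of chr2:109917647-110014257. Znrf3 (chr11:5276324-5444847, minus strand), Rnf43 (chr11:87662722-87735539, plus strand) and Axin2 (chr11:108920349-108950783, plus strand) share chromosome 11. All 10 genes are annotated as protein coding, and their sums include every annotated transcript in the data, retained introns among them: ENSMUST00000134684 of Rnf43 held 19.2% of the gene's counts in WT/PEG and 14.8% in WT/NTZ, and ENSMUST00000149008 of Lgr5 held 15.5% in KO/NTZ.

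Libraries held 6065084 to 21945124 estimated counts in all. Atp4b, the targeted gene, separated the genotypes: no KO library was above 40.6 CPM and no WT library below 2139 CPM. Levels are given as CPM, counts relative to the library total after TMM scaling, unless TPM, which also corrects for transcript length, is named. One KO/PEG library, from animal 46, stood apart: it was the highest of the 13 KO/PEG libraries for 23.9% of the 14901 genes tested and the lowest for 26.6%, against at most 14.4% and 15.4% for any other. Each result that rests on it is given with and without it. The transcript length slope, the rise of log2 CPM with log2 transcript length relative to the average library, ran from 0.08 to 0.35 in WT libraries and from -0.37 to -0.03 in KO libraries other than animal 46, which had 0.17. The share of mitochondrial transcripts was also lower in KO libraries, with medians of 4.86% in KO/PEG and 3.81% in KO/NTZ against 9.57% in WT/PEG and 9.41% in WT/NTZ. Genotype and length slope therefore cannot be told apart in most libraries. Of the 4 parietal cell markers, Atp4b is the deleted gene, so its fall is fixed by genotype, and the other 3 (Atp4a, Kcne2 and Aqp4) fell in KO/PEG versus WT/PEG. Of 4 chief cell genes 3 fell (Pgc, Gif and Bhlha15) and 1 rose (Pga5). The summed level of 4 chief cell genes was 88876 to 208501 CPM in WT/PEG and 2442 to 36553 CPM in KO/PEG. Atp4a, the other subunit of the proton pump, was 6201 to 9322 CPM in WT/PEG and 1906 to 6978 CPM in KO/PEG, ranges that overlapped. Animal numbers in the labels were under 100 for 0 of 11 libraries of WT/PEG and 5 of 9 of WT/NTZ, and for 6 of 13 of KO/PEG and 10 of 11 of KO/NTZ, and what the numbers stand for is not stated.

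Per transcript length, Lgr4 was the most abundant member in every group by median, at 27.2 TPM in WT/PEG, 26.1 TPM in WT/NTZ, 19 TPM in KO/PEG and 9.47 TPM in KO/NTZ. Rnf43 came next in all 4 groups, at medians of 4.73 to 5.71 TPM. In both WT groups the ranges of Lgr4 and Rnf43 did not overlap, whereas in both KO groups they did. The order below Rnf43 in WT/PEG was Rspo3 (3.09 TPM), Znrf3 (2.89 TPM), Rspo1 (1.4 TPM), Axin2 (1.21 TPM) and Lgr5 (0.832 TPM), and each of these neighbours overlapped in range. Rspo4, Rspo2 and Lgr6 lay lowest, at medians of 0.33, 0.268 and 0.0706 TPM, and the range of Lgr5 did not reach down to that of Rspo4. In KO/PEG, Rspo4 had risen in the order to 0.952 TPM, between Axin2 and Rspo1, and Rspo2 had become the lowest at 0.0188 TPM, with all neighbours overlapping.

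**Figure D1:**
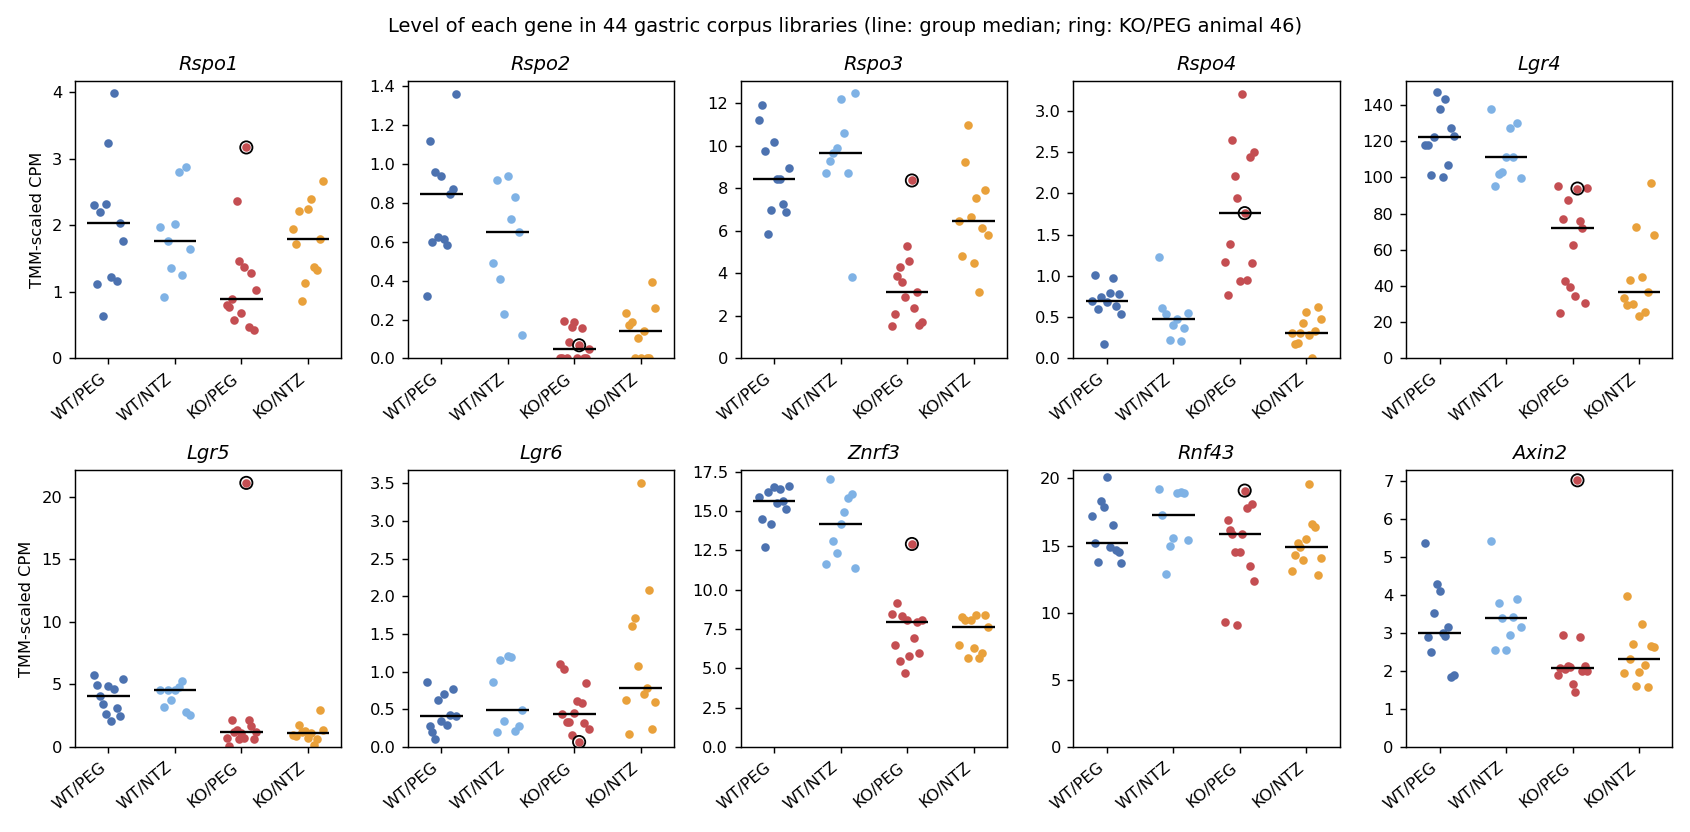
TMM-scaled CPM (vertical axis, linear from 0) of the 10 members in each of the 44 libraries, by group. Points are libraries, lines are group medians and the ring marks the KO/PEG library of animal 46, which reaches 21.1 CPM for Lgr5 and 7.02 CPM for Axin2. Rspo3, Lgr4 and Znrf3 lie lower in both KO groups than in WT groups by median, and Rspo4 lies highest in KO/PEG.

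Of the 8 members that could be tested in KO/PEG versus WT/PEG, 4 passed at an adjusted p under 0.05 and all 4 were lower, namely Rspo1, Rspo3, Lgr4 and Znrf3. The background was large: 74.7% of all genes tested passed in this comparison, 37.2% as lower and 37.5% as higher. The 4 of 8 is therefore no more than the share among all genes, and the values of each gene carry the result. Without animal 46, 6 of 8 passed, all lower, with Lgr5 and Axin2 added. In that fit 76.3% of all genes passed, 5681 of 14849 as lower. Rspo2 was too low for the filter on low counts, so 9 of the 10 members entered the fit, and Rspo4 is described without a test wherever KO libraries enter. Each p is from the quasi-likelihood test of edgeR, adjusted over all genes by Benjamini-Hochberg.

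Among the ligands, Rspo3, an R-spondin that stromal cells and endothelium produce in many organs, was the most abundant. It ranged from 5.87 to 11.9 CPM (median 8.46) in WT/PEG and from 1.53 to 8.37 CPM (median 3.14) in KO/PEG. In 12 of 13 KO/PEG libraries it was below every WT/PEG library, the exception being animal 46. It fell 2.49-fold, a log2 fold change of -1.32 (SE 0.21, adjusted p = 8.6e-07), and without animal 46 the log2 fold change was -1.49 (adjusted p = 1.33e-08). With the length slope in the fit the change was -0.69 on the log2 scale and no longer passed (adjusted p = 0.134).

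Under NTZ, Rspo3 in knockouts was 3.13 to 11 CPM (median 6.47), and 10 of 11 KO/NTZ libraries lay above the KO/PEG median. It rose 1.92-fold compared to KO/PEG (log2 0.94, SE 0.21, adjusted p = 0.00516) and was the only one of 8 members tested to pass, in a comparison where 5.56% of all genes did, 2.97% as higher and 2.6% as lower. The rise passed without animal 46 (1.12, adjusted p = 0.000265) and with the length slope in the fit (1.02, adjusted p = 0.001). It did not pass when only the 2 groups compared were fitted (0.92, adjusted p = 0.0549) or among animals numbered under 100 (0.57, adjusted p = 0.301), where the medians were 3.73 CPM in 6 KO/PEG and 6.31 CPM in 10 KO/NTZ libraries. KO/NTZ remained at a lower median than WT/NTZ, where Rspo3 ranged from 3.81 to 12.5 CPM (median 9.65), with a log2 difference of -0.50 (SE 0.23, adjusted p = 0.0518). That difference passed with DESeq2 (-0.51, adjusted p = 0.0395) and without animal 46 (-0.49, adjusted p = 0.0305), and was 0.07 with the length slope in the fit (adjusted p = 0.914).

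Smooth muscle markers, summed over 6 genes, were 2522 to 4320 CPM in WT/PEG, 1093 to 3513 CPM in KO/PEG and 2155 to 4775 CPM in KO/NTZ. Of these genes 5 fell in KO/PEG versus WT/PEG and 3 rose in KO/NTZ versus KO/PEG. Fibroblast markers were lower for 4 of 7 genes in KO/PEG versus WT/PEG, where Rspo3 fell too. They were lower for 2 of 7 in KO/NTZ versus KO/PEG, where Rspo3 rose. Of all genes tested, 74.7% passed in the first of these comparisons and 5.56% in the second. With group means taken off, Pearson's r of Rspo3 over 44 libraries was 0.48 with the summed smooth muscle markers and 0.37 with the summed fibroblast markers. Without animal 46 these were 0.39 and 0.38. The part of these cells in the change of Rspo3 was not tested.

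Rspo1, a ligand first known for its role in ovary development, was low. It ranged from 0.64 to 3.99 CPM (median 2.04) in WT/PEG, from 0.428 to 3.17 CPM (median 0.889) in KO/PEG and from 0.855 to 2.67 CPM (median 1.8) in KO/NTZ, so that the groups overlapped. It fell in KO/PEG versus WT/PEG by 0.78 on the log2 scale (SE 0.28, adjusted p = 0.0121), and with the length slope in the fit the difference was 0.0034 (adjusted p = 0.996). In KO/NTZ versus KO/PEG it was 0.62 higher (SE 0.28, adjusted p = 0.162), and without animal 46, the highest KO/PEG library, the difference was 0.85 and passed (adjusted p = 0.048). With group means taken off, Pearson's r of Rspo1 with the summed smooth muscle markers over 44 libraries was 0.64, or 0.59 without animal 46, against 0.48 and 0.39 for Rspo3. The part of smooth muscle in the change of Rspo1 was not tested.

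Rspo2, a potent R-spondin of limb and lung development, was near the limit of detection. It held 6 to 20 counts per library in WT/PEG, 2 to 9 in WT/NTZ, 0 to 5 in KO/PEG and 0 to 6 in KO/NTZ. All 13 KO/PEG libraries were below every WT/PEG library, and 6 of them had a count of 0, which allows up to 3 counts and covers counting error only. In the fit without a filter on low counts, Rspo2 fell in KO/PEG versus WT/PEG (log2 -3.21, adjusted p = 1.08e-07) and was lower in KO/NTZ versus WT/NTZ (log2 -1.89, adjusted p = 0.00116).

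Rspo4, known for its role in nail development, was the ligand with another pattern. Its level was 0.178 to 1.01 CPM (median 0.7) in WT/PEG, 0.208 to 1.23 CPM (median 0.48) in WT/NTZ, 0.768 to 3.2 CPM (median 1.76) in KO/PEG and 0 to 0.627 CPM (median 0.312) in KO/NTZ. Every KO/NTZ library was below every KO/PEG library, and 10 of 13 KO/PEG libraries exceeded the highest of WT/PEG. The fitted log2 differences were -2.31 for KO/NTZ versus KO/PEG, the comparison that chose the gene, and 1.33 for KO/PEG versus WT/PEG. Both use the KO/PEG libraries that entered the choice, so neither gives independent support. The counts behind them were small, 7 to 51 per KO/PEG library and 0 to 11 per KO/NTZ library.

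Among animals numbered under 100, Rspo4 ranged from 0.941 to 2.21 CPM in 6 KO/PEG and from 0 to 0.627 CPM in 10 KO/NTZ libraries, which are among the libraries that chose the gene and give no independent support. Animal 46, at 1.76 CPM, was an ordinary KO/PEG library for this gene. In WT mice, the one comparison of Rspo4 that its choice did not use, WT/NTZ was 0.44 lower than WT/PEG on the log2 scale (SE 0.32, adjusted p = 0.894), within the spread of the libraries. An antisense gene, Rspo4os, overlaps it, and the strand setting of the counting is not given in the sources used here, so reads of this pair may not be separated. The same holds for Rspo1 with Gm12930, Rspo3 with Gm48159 and Axin2 with Gm11670.

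**Figure D2:**
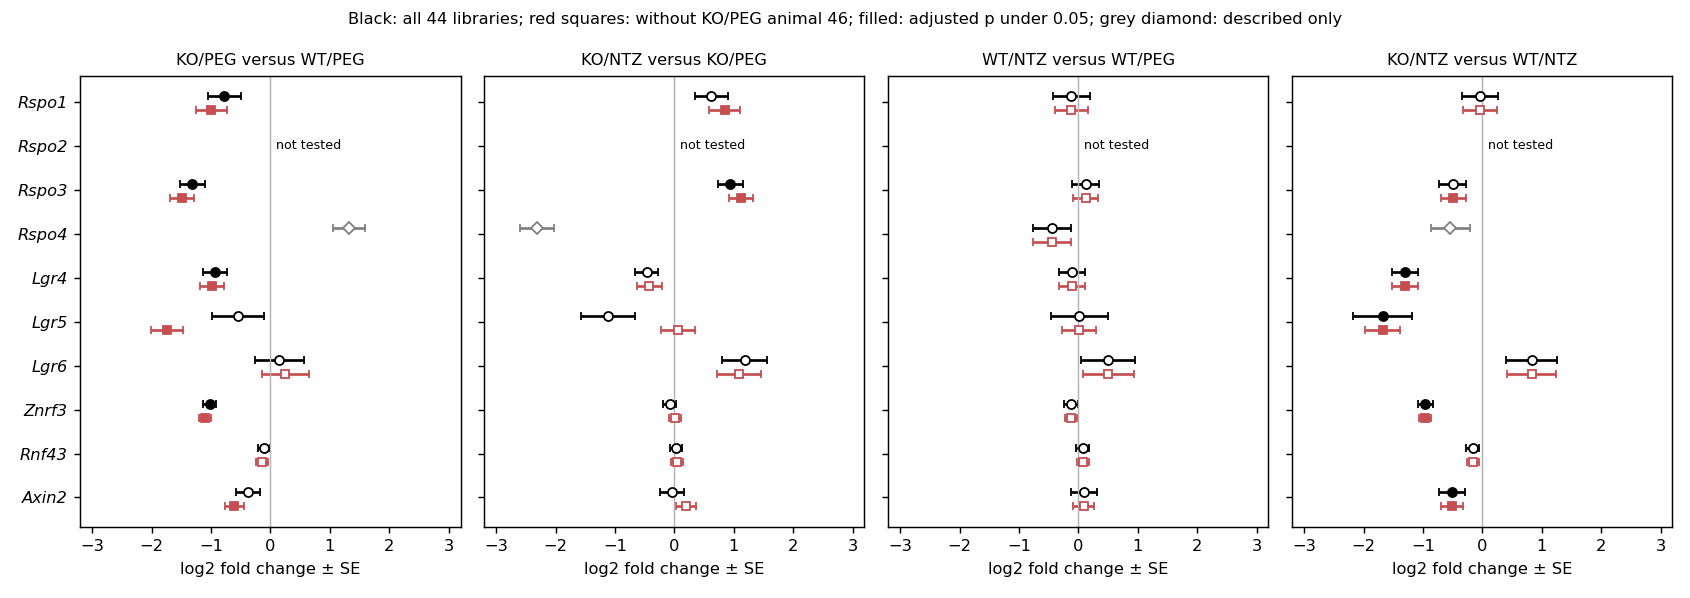
Log2 fold change (horizontal axis) with its standard error for the members in 4 comparisons, in the fit of all 44 libraries (black) and without the KO/PEG library of animal 46 (red). Filled symbols passed at an adjusted p under 0.05 and grey diamonds are described only. Lgr5 moves from -0.55 to -1.74 in KO/PEG versus WT/PEG and from -1.12 to 0.06 in KO/NTZ versus KO/PEG when animal 46 is left out.

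Among the receptors, Lgr4, the broadly expressed member of the family, was 122 ± 15.9 CPM (SD, n = 11) in WT/PEG, with a lowest library at 100 CPM, and 113 ± 15.2 CPM (SD, n = 9) in WT/NTZ, with a lowest library at 95.4 CPM. It was 25 to 95.4 CPM (median 71.9) in KO/PEG, with all 13 libraries below every WT/PEG library, and 23.6 to 96.7 CPM (median 36.8) in KO/NTZ. Lgr4 fell 1.91-fold in KO/PEG versus WT/PEG (log2 -0.94, SE 0.20, adjusted p = 7.53e-05) and 2.46-fold in KO/NTZ versus WT/NTZ (log2 -1.30, SE 0.22, adjusted p = 2.51e-06). The further difference between KO/NTZ and KO/PEG, -0.47 on the log2 scale (SE 0.20), did not pass (adjusted p = 0.145). With group means taken off, the level of Lgr4 had a Pearson's r of 0.76 with the length slope over 44 libraries, which share tissue makeup, and with the slope in the fit the difference was 0.58 with the opposite sign in KO/PEG versus WT/PEG (adjusted p = 0.0776) and 0.01 in KO/NTZ versus WT/NTZ (adjusted p = 0.988).

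Lgr5, the stem cell receptor, was the gene that rested most on a single library. It ranged from 2.11 to 5.76 CPM (median 4.09) in WT/PEG, 2.55 to 5.3 CPM (median 4.55) in WT/NTZ and 0.196 to 2.98 CPM (median 1.13) in KO/NTZ. In KO/PEG, animal 46 had 21.1 CPM (313 counts), whereas the other 12 libraries had 0.11 to 2.2 CPM (median 1.16), 10 of the 13 below every WT/PEG library. With all libraries, Lgr5 was 0.55 lower in KO/PEG versus WT/PEG (SE 0.44, adjusted p = 0.255). Without animal 46 it fell by 1.74 on the log2 scale and passed (SE 0.27, adjusted p = 3.87e-07). DESeq2 with all libraries gave -1.62 (adjusted p = 4.69e-10), but it replaces outlying counts and used 34 in place of the 313 of animal 46, so this is no fit with that value.

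Neither KO/NTZ nor WT/NTZ holds that library, which enters their comparison through the shared estimate of spread. There Lgr5 fell 3.2-fold (log2 -1.68, SE 0.50, adjusted p = 0.00284, or SE 0.29 and adjusted p = 3.21e-06 without animal 46), with 10 of 11 KO/NTZ libraries below every WT/NTZ library. With the length slope in the fit this was 0.89, with the opposite sign (adjusted p = 0.145). Its difference between KO/NTZ and KO/PEG was -1.12 with animal 46 (adjusted p = 0.13) and 0.06 without it (SE 0.28, adjusted p = 0.913). With the length slope in the fit, the sign in KO/PEG versus WT/PEG turned to 1.77 (adjusted p = 0.000782), a fit in which animal 46 is the one KO library at WT values of the slope. The summed chief cell markers given above were lower in KO libraries, as Lgr5 was. With group means taken off, Pearson's r of Lgr5 with them over 44 libraries was 0.03 (0.26 without animal 46). It was 0.47 (0.59) with the summed fibroblast markers and 0.71 (0.58) with the length slope. The part of these cells in the level of Lgr5 was not tested. Lgr5 overlaps A930009A15Rik on the opposite strand.

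Lgr6, known from hair follicle and skin stem cells, was the lowest receptor, at medians of 4 to 14 counts per library. It ranged from 0.0675 to 1.1 CPM (median 0.439) in KO/PEG and from 0.172 to 3.51 CPM (median 0.783) in KO/NTZ, with 4 of 11 KO/NTZ libraries above every KO/PEG library. The log2 difference of 1.18 (SE 0.38) did not pass (adjusted p = 0.0542), and it passed with DESeq2 (adjusted p = 0.0382). Lgr6 differed between KO/PEG and WT/PEG by 0.15 (SE 0.41, adjusted p = 0.744). Squamous forestomach markers had a summed level of 2.04 to 316 CPM (median 20.8) in KO/PEG and 20.6 to 411 CPM (median 88.7) in KO/NTZ, with 0 of 7 passing by edgeR. In WT/PEG the sum was 0.529 to 303 CPM (median 0.939), and in WT/NTZ it was highest, at 0.464 to 1926 CPM (median 398). The part of forestomach tissue in the level of Lgr6, and in the comparisons that use WT/NTZ, was not tested.

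The membrane ligases went apart. Znrf3 ranged from 12.7 to 16.6 CPM (median 15.6) in WT/PEG, 11.4 to 17 CPM (median 14.2) in WT/NTZ, 4.69 to 12.9 CPM (median 7.95) in KO/PEG and 5.67 to 8.41 CPM (median 7.62) in KO/NTZ. Only animal 46 among the KO/PEG libraries reached into the WT/PEG range, and all 11 KO/NTZ libraries lay below every WT/NTZ library. Znrf3 fell 2.02-fold in KO/PEG versus WT/PEG (log2 -1.02, SE 0.11, adjusted p = 9.68e-11) and 1.95-fold in KO/NTZ versus WT/NTZ (log2 -0.96, SE 0.12, adjusted p = 5.63e-09). With the length slope in the fit these were -0.23 and -0.25 (adjusted p = 0.15 for both).

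Rnf43, the partner ligase, had medians of 15.2 CPM in WT/PEG, 17.3 CPM in WT/NTZ, 15.9 CPM in KO/PEG and 14.9 CPM in KO/NTZ, and all groups overlapped. Its log2 differences were -0.11 (SE 0.10, adjusted p = 0.303) for KO/PEG versus WT/PEG and 0.02 (SE 0.10, adjusted p = 0.91) for KO/NTZ versus KO/PEG. It held 56 to 419 counts per library. In KO/NTZ versus WT/NTZ the difference was -0.16 (SE 0.11, adjusted p = 0.173), and among animals numbered under 100 it was -0.27 and passed (adjusted p = 0.0364).

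Axin2, the feedback gene, was 1.84 to 5.38 CPM (median 3) in WT/PEG, 2.55 to 5.41 CPM (median 3.41) in WT/NTZ, 1.45 to 7.02 CPM (median 2.08) in KO/PEG and 1.58 to 3.97 CPM (median 2.32) in KO/NTZ. The highest value was again animal 46, and no other KO/PEG library exceeded 2.94 CPM. Axin2 was 0.38 lower in KO/PEG versus WT/PEG (SE 0.20, adjusted p = 0.0861), and without animal 46 it fell by 0.61 and passed (adjusted p = 0.000953). It fell in KO/NTZ versus WT/NTZ (log2 -0.51, SE 0.22, adjusted p = 0.0365), which did not pass without a filter on low counts (adjusted p = 0.0569) and was 0.13 with the length slope in the fit (adjusted p = 0.815). Between KO/NTZ and KO/PEG the difference was -0.04 (SE 0.20, adjusted p = 0.909), or 0.19 without animal 46 (adjusted p = 0.495).

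In KO/NTZ versus WT/NTZ, 4 of 8 members tested passed, all lower (Lgr4, Lgr5, Znrf3 and Axin2), where 72.4% of all genes passed, 36.8% as lower and 35.6% as higher. In WT/NTZ versus WT/PEG none of 9 passed by edgeR, DESeq2 or limma-trend, 0 had an unadjusted p under 0.05, and the background was 1.03%, almost all of it higher (1.03% against 0.00671% lower). For the difference between the NTZ effect in KO and in WT mice, 0 of 8 passed by any of these tools, with 1 at an unadjusted p under 0.05 (Rspo3, log2 0.82, SE 0.32, adjusted p = 0.241) and a background of 0.96% (0.242% higher and 0.718% lower). That NTZ acted on Rspo3 in knockouts but not in WT mice is therefore not shown.

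**Figure D3:**
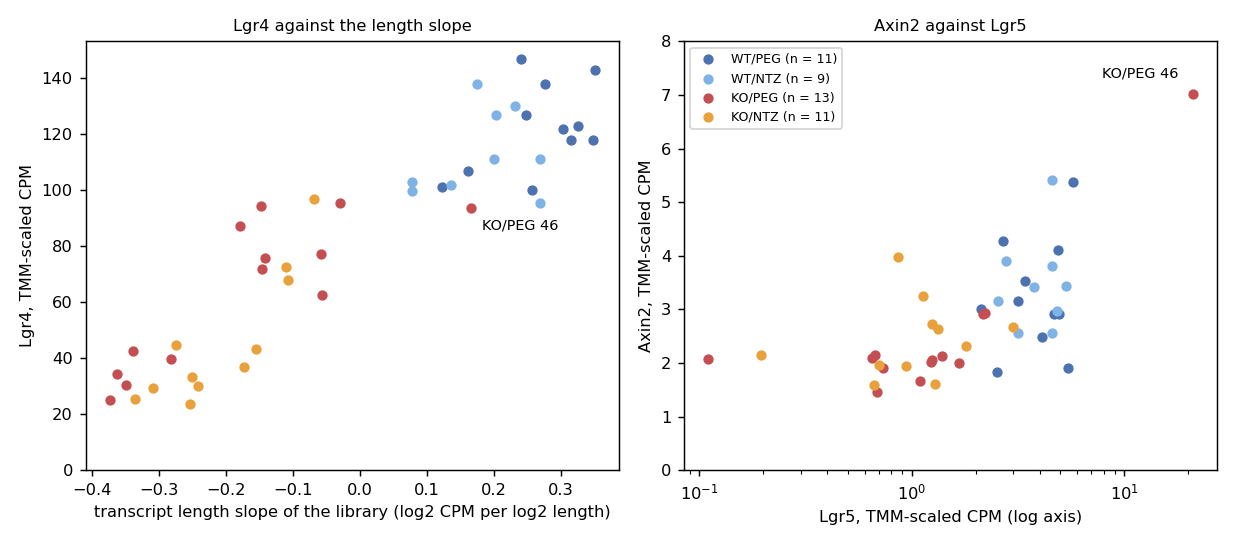
Left, Lgr4 in TMM-scaled CPM against the transcript length slope of each library; right, Axin2 against Lgr5, both in CPM, with a log axis for Lgr5. Points are the 44 libraries coloured by group. The KO/PEG library of animal 46 lies at a slope of 0.17 among the WT libraries on the left, and alone at the upper right of the other panel.

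Animal 46 was the highest KO/PEG library for 6 of the 9 members in the fit, Rspo1, Rspo3, Lgr5, Znrf3, Rnf43 and Axin2, and for 17 of 61 other Wnt pathway genes, beside 23.9% of all genes. Lgr5 had the third widest gap to the next KO/PEG library of all 14901 genes (3.17 on the log2 scale), after Lyz1 (3.96), a lysozyme, and the pseudogene Rpl10-ps1 (3.32). Nkx6-3, a homeobox gene of the antrum, followed at 3.13. These were named after their values were seen. Tcf7, which encodes a Wnt-responsive nuclear factor, had 11.2 CPM there against at most 6.03 CPM in the others, and Nkd2, an inhibitor of Dishevelled, 4.32 against 2.4 CPM. The mitochondrial share was 14.45%, above the 7.84% of the next KO/PEG library. Of the 6 smooth muscle markers, Myh11 was highest there at 626 CPM against at most 314 CPM, and Actg2 at 653 against 638 CPM. Acta2, Des, Cnn1 and Tagln were not highest, at 741, 509, 297 and 686 CPM against at most 758, 623, 356 and 981 CPM. The surface mucous cell genes Gkn1 and Tff1 and the chief cell gene Pgc were lowest there. They had 4170, 5593 and 1777 CPM against at least 7424, 7469 and 1984 CPM. The surface mucous cell gene Muc5ac was not lowest, at 319 CPM against at least 135 CPM. Nor were the chief cell genes Gif, Bhlha15 and Pga5, at 1922, 27.2 and 59.7 CPM against at least 29, 15.3 and 41.1 CPM. Of 2 antral genes, Gast was highest there at 0.945 CPM (14 counts) against at most 0.393 CPM. Pdx1 was 9.65 CPM, against a median of 1.05 CPM and at most 10.4 CPM in the others. The part of these cells in the levels of animal 46 was not tested.

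The transcripts that carried the counts differed between groups for several members, among them Rnf43, whose summed level did not pass. For Rnf43, ENSMUST00000040089, which begins at 87699897 of chromosome 11 (GRCm38, plus strand), held 19.7% of the counts in WT/PEG and 34.6% in WT/NTZ. It held 71.2% in KO/PEG and 87.2% in KO/NTZ. ENSMUST00000165679, which begins upstream at 87663087, went from 33% and 37.6% to 9.81% and 4.4%. Another upstream coding transcript, ENSMUST00000092800, begins at 87664274 and held 25.9%, 12%, 14% and 6.23% in the same order of groups. Single libraries varied widely: in WT/PEG, ENSMUST00000165679 ran from 1.28% to 72.4% and ENSMUST00000092800 from 0% to 70.5%. In animal 46 these upstream transcripts held 0% and 39.9%. In 12 of 13 KO/PEG libraries the share of the downstream transcript was above every WT/PEG library, and the exception was animal 46 at 43.1%. These are estimates by kallisto from single reads of 75 bases, which divide reads among transcripts that share exons. The length slope differed between the same groups, and its part in the shift was not tested.

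The 250 bases before the Rnf43 starts of ENSMUST00000165679 (upstream) and ENSMUST00000040089 (downstream) are shown because the starts differ in their share between the groups. They come from the RefSeq promoter table of GRCm38.p6. The upstream window spans chr11:87662837-87663086 and the downstream one chr11:87699647-87699896, both on the plus strand.
Rnf43 upstream start: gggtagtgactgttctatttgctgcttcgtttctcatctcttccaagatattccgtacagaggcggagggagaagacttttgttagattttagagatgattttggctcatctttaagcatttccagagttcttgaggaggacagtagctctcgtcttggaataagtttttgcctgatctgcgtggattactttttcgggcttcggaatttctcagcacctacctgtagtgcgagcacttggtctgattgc
Rnf43 downstream start: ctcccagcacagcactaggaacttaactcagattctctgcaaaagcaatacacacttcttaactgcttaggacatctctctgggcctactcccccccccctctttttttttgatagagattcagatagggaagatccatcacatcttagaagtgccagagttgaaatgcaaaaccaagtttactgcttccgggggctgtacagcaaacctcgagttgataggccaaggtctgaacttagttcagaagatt
Capitals were reserved for the TCF/LEF motif CTTTG followed by AT, TT, AA or TA, on either strand, and neither window holds one. Of 32851 mouse promoters, 14.8% hold at least 1 in this window, and 0 of the 7 promoters found for 6 members (Rspo1, Rspo4, Lgr4, Lgr6, Rnf43 and Axin2) do. Rspo2, Rspo3, Lgr5 and Znrf3 were not in the table.

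For Axin2, ENSMUST00000139682, a processed transcript that begins at 108943621 in the 3' part of the gene, held 33.6% of the counts in WT/PEG and 45.3% in WT/NTZ. It held 61% in KO/PEG and 89% in KO/NTZ. The full-length coding transcript, ENSMUST00000052915, held 49.5%, 46.7%, 35.3% and 7.8%. Axin2 had 432 to 513 counts in all libraries of the PEG groups together, so the share in a single library rests on few reads and ran from 0% to 100%. For Lgr4, ENSMUST00000111037, which has 17 exons against the 18 of ENSMUST00000046548, rose from 65.1% and 75.1% in the WT groups to 85% and 94.3% in the KO groups. Znrf3 (ENSMUST00000109867) went from 78.6% and 79.4% to 88.6% and 93.9%, and all 11 KO/NTZ libraries were above every WT/NTZ library. Lgr5 (ENSMUST00000020350) went from 95.4% and 94% to 90.8% and 83.5%. Rspo2, Rspo3 and Rspo4 had 1 transcript each in the data. By the count-weighted mean transcript length in KO/PEG versus WT/PEG, 33.2% of 9866 genes shortened more than Rnf43 and 42.1% more than Lgr4. For Lgr5 this was 25.9% and for Axin2 7.25%. Znrf3 lengthened (0.0373 on the log2 scale), where 50.5% of these genes shortened. Mean length does not measure the share of a transcript, so how common such shifts in share were over all genes was not measured. Nothing particular to the members follows from their shares.

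**Figure D4:**
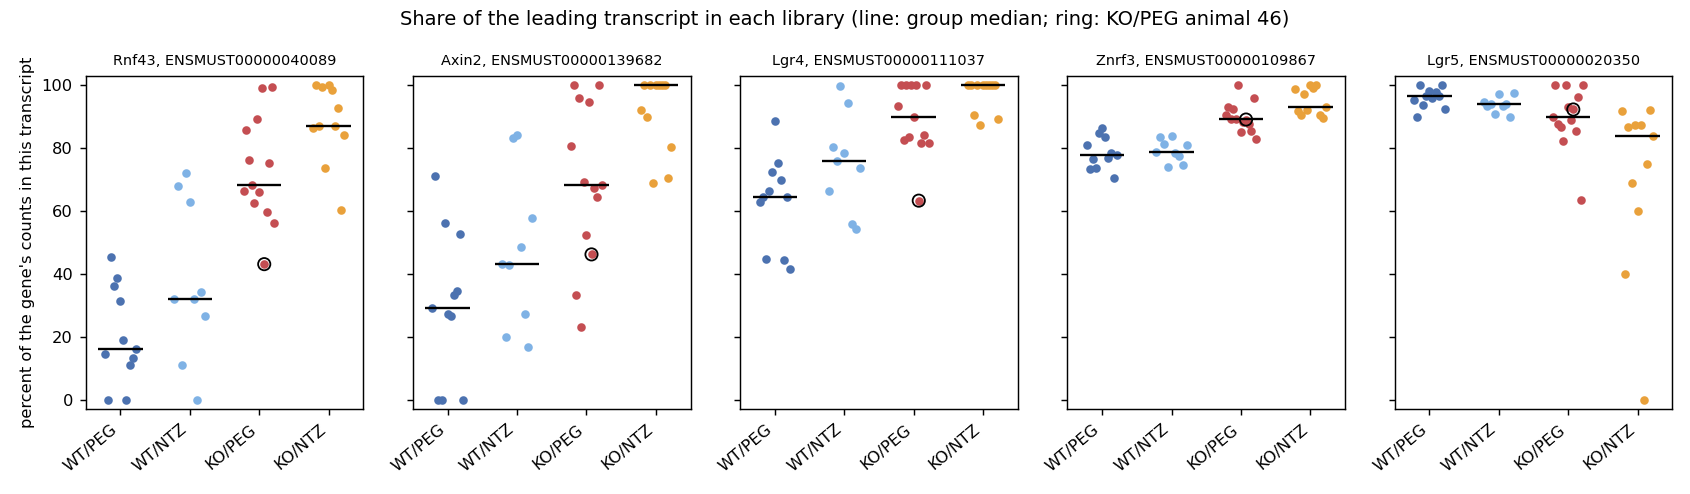
Percent of each gene's counts (vertical axis, 0 to 100) assigned to its leading transcript in each of the 44 libraries, by group. Points are libraries, lines are group medians and the ring marks animal 46. The Rnf43 medians are 16% and 32.1% for WT/PEG and WT/NTZ, below the 68.4% and 87.1% of KO/PEG and KO/NTZ.

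As a description over the 44 libraries, with group means taken off, genes were ranked by Pearson's r of log2 CPM with each member. Libraries share depth and tissue makeup, so r says nothing of shared control. Rspo3 was most like Lmod1 (0.80), a smooth muscle leiomodin, Ccdc3 (0.79) and Vipr2 (0.77). Rspo1 was most like Six2 (0.79), Hand2 (0.78) and Pcp4 (0.72). Lgr5 was most like Gnao1 (0.82), Cald1 (0.81) and Chrm2 (0.81), and without animal 46 these were 0.74, 0.67 and 0.72. Lgr4 was most like Ugt2b34 (0.96), Cd2ap (0.95) and Fut8 (0.94), and Znrf3 most like 5730455P16Rik (0.87), Kat6b (0.83) and Nr2c2 (0.82). Axin2 was most like Nkd2 (0.66), Satb1 (0.63) and Plin4 (0.60), which fell to 0.51, 0.45 and 0.41 without animal 46. Rnf43 was most like Ltb4r2 (0.65), Slc39a4 (0.63) and Rcan3 (0.62). For Rspo4 and Lgr6, at median counts of 8 and 7, no gene was above 0.64 and 0.55.

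Of the other Wnt pathway genes, 61 of 77 were in the fit, and 38 passed in KO/PEG versus WT/PEG, 13 higher and 25 lower, that is 62.3% against 74.7% of all genes. Their median log2 fold change was -0.20, against -0.003 for all genes. Wnt ligands split 3 higher to 3 lower of 8: Wnt11, a largely beta-catenin-independent ligand, rose 9.53-fold from 3.95 ± 1.75 CPM (SD, n = 11) to 38 ± 15.2 CPM (SD, n = 13), while Wnt9a fell 2.97-fold. Of 12 Wnt receptors 6 fell and 1 rose. Fzd4 fell 6.15-fold from 55.4 ± 6.54 CPM (SD, n = 11) to 8.91 ± 4.46 CPM (SD, n = 13), and the co-receptor Lrp6 fell 2.46-fold. Of 10 antagonists outside the cell 4 fell and 2 rose, with Sostdc1, which blocks LRP co-receptors, lower 17.8-fold.

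Of 11 target genes, 5 rose and 3 fell. Ephb2, a receptor of crypt base cells in the intestine, rose 3.95-fold from 5.76 ± 0.883 CPM (SD, n = 11) to 22.8 ± 6.03 CPM (SD, n = 13). Adjusted p-values of the 6 genes named here for this comparison (Ephb2, Wnt11, Lrp6, Fzd4, Wnt9a and Sostdc1) were 3.78e-16 to 6.42e-11, and all 6 passed with the length slope in the fit, at log2 fold changes of 1.95, 2.15, -0.31, -0.76, -1.38 and -2.98. In KO/NTZ versus WT/NTZ 40 of 61 passed, 13 higher and 27 lower, or 65.6% against 72.4% of all genes. By smallest p they were led by Ephb2 and Fzd4, then Wnt11, Lrp6, Notum, a Wnt deacylase (log2 3.64), and Pygo2, a beta-catenin cofactor (log2 1.04). With the length slope in the fit Lrp6 (-0.18, adjusted p = 0.111) and Pygo2 (0.23, adjusted p = 0.156) no longer passed. In that fit 12 of the 61 passed, where 21.1% of all genes did.

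Under NTZ in knockouts, 6 of the 61 passed (9.84%, against 5.56% of all genes), 5 of them higher. The secreted antagonists Sfrp1 and Sfrp5 rose 1.43-fold and 1.57-fold (adjusted p = 0.00303 and 0.00972). The feedback inhibitor Nkd1 rose 1.56-fold (adjusted p = 0.00874), the ligand Wnt9a 1.49-fold (adjusted p = 0.0177) and the receptor Fzd2 1.41-fold (adjusted p = 0.0187). Myc, a target gene, fell by 0.35 on the log2 scale (adjusted p = 0.0308). Among animals numbered under 100, 0 of the 57 that could be tested passed, where 0.698% of all genes did. In WT mice 0 of 61 passed by edgeR, DESeq2 or limma-trend, with 7 at an unadjusted p under 0.05 by edgeR. The NTZ effect differed between the genotypes for 1 of 61, Sfrp1, which was 0.66 higher in KO on the log2 scale (SE 0.17, adjusted p = 0.0376). This call was lost, with 0 of the 61 passing, without both libraries numbered 110, without the filter on low counts and with RLE size factors.

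**Figure D5:**
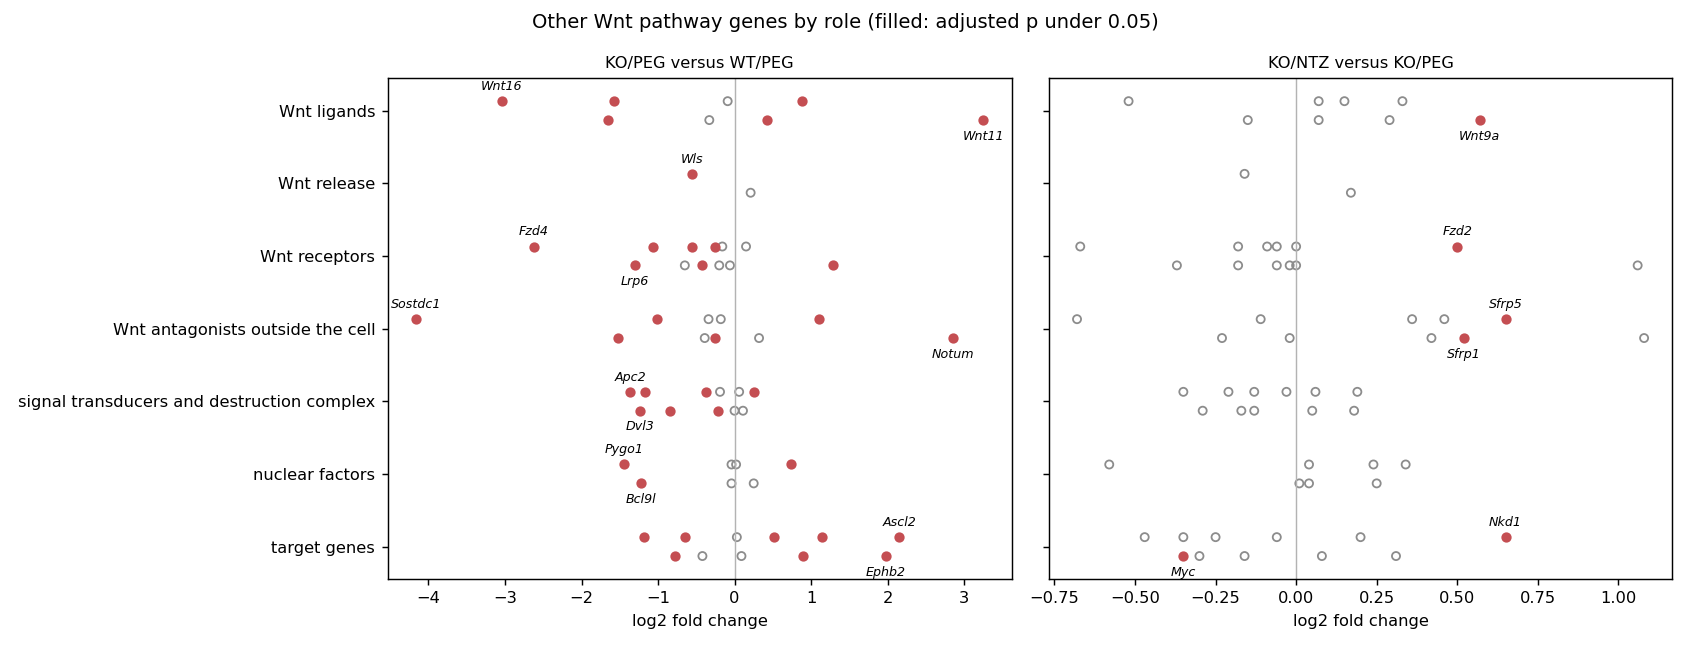
Log2 fold change (horizontal axis) of the 61 other Wnt pathway genes in the fit, by role, for KO/PEG versus WT/PEG (left) and KO/NTZ versus KO/PEG (right). Each point is a gene, filled where the adjusted p was under 0.05, and the largest called changes of each role are named. On the left 13 filled points are above 0 and 25 below, and on the right 5 and 1.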

How the data were processed

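The labels describe gastric corpus RNA sequenced with the TruSeq Stranded mRNA kit as single reads. The authors estimated transcript abundance with kallisto 0.42.4 on GRCm38 transcripts and deposited estimated counts per transcript for each library. Of 94080 transcripts 92372 were paired with a gene name in GENCODE vM21, and the 1708 unpaired ones held 0.329% to 1.3% of a library's counts. Counts were summed per gene and rounded. The study's own test, Sleuth, was not repeated, since it needs resampled estimates that a count table does not hold. In edgeR 4.0.16 (R 4.3.3) genes were kept with filterByExpr (minimum count 10, minimum total 15), scaled by TMM, and compared with the quasi-likelihood test in 1 fit of all 44 libraries, with Benjamini-Hochberg adjustment and a threshold of 0.05. Log2 CPM used a prior count of 2. DESeq2 1.42.0 and limma-trend (limma 3.58.1) were alternatives. On simulated KO/NTZ and KO/PEG counts for 14901 genes, 200 of them changed, edgeR made 186 calls, 9 of them false, and recovered 80% of 2-fold and 97% of 4-fold changes. Totals of 6065084 to 21945124 limit low genes to a few counts, where a count of 0 allows up to 3, for counting error only. Groups came from the labels. Whether libraries came from separate animals is known only from animal numbers, so p-values measure the spread between these libraries. One number, 172, stands on a pair of WT/PEG libraries, and 110 on one KO/PEG and one KO/NTZ library. The members, the gene lists and the tests were chosen with earlier results of these data known. In each comparison up to 6 passing pathway genes are named, those of smallest p, and like genes the 3 with the highest correlation. Leaving out animal 46 and the length slope as a covariate were chosen after seeing the data.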

Additional observations from a re-analysis of the deposited data

Results flagged for a closer look

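Of 10 members tested for a library far from the rest of the WT/NTZ group (n = 9), 3 had one, where chance gives about 1 in 20 groups. Rspo3 was 3.81 CPM in WT/NTZ animal 99, and the nearest library had 8.73 CPM. Rspo4 was 1.23 CPM in WT/NTZ animal 86, against 0.613 CPM in the nearest library. Axin2 was 5.41 CPM in the same animal 86, against 3.9 CPM. The groups of over 10 libraries were not tested in this way. Sfrp1, a secreted Wnt antagonist, had an NTZ effect 0.66 higher in KO than in WT mice on the log2 scale (SE 0.17, quasi-likelihood test of edgeR, Benjamini-Hochberg adjusted p = 0.0376). It no longer passed when both libraries numbered 110 were left out, when genes of low count were kept, or with RLE size factors.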

How the results depend on the processing

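No paired analysis was possible because the groups compared share fewer than 2 animal numbers. Of the single-gene values, 412 kept their direction and side of the threshold, 17 newly passed, 6 no longer passed and 27 changed sign, and of the counts of calls 80 stayed within 1.5 times and 16 did not. With the length slope in the fit, members called went to 1 in KO/PEG versus WT/PEG, 2 in KO/NTZ versus KO/PEG, then 0 in KO/NTZ versus WT/NTZ, and Wnt pathway genes called to 20 in KO/PEG versus WT/PEG, 12 in KO/NTZ versus WT/NTZ and 6 for the difference in NTZ effect. In that fit the sign turned in KO/PEG versus WT/PEG for Rspo1 (0.0034), Lgr4 (0.58), Lgr5 (1.77), Lgr6 (-0.17) and Axin2 (0.30), in KO/NTZ versus KO/PEG for Znrf3 (0.01) and Axin2 (0.08), in WT/NTZ versus WT/PEG for Rspo1 (0.06), Lgr4 (0.21) and Znrf3 (0.02), in KO/NTZ versus WT/NTZ for Rspo1 (0.69), Rspo3 (0.07), Lgr4 (0.01), Lgr5 (0.89) and Axin2 (0.13), and for the difference in NTZ effect for Znrf3 (-0.01). In KO/PEG versus WT/PEG, members called were 5 by DESeq2, 6 by limma-trend, 6 without animal 46 and 6 within one class of animal number, all lower. In KO/NTZ versus KO/PEG, members called were 2 by DESeq2, 2 without animal 46, 0 within one class of animal number and 0 in a fit of only the groups compared, and pathway genes called were 0 and 2 in these last settings. Without animal 46 the sign turned there for Lgr5 (0.06), Znrf3 (0.01) and Axin2 (0.19), and for the difference in NTZ effect for Lgr5 (0.05) and Axin2 (0.10). Axin2 was 0.04 there by limma-trend. Within one class of animal number Rnf43 was -0.16 there, and in WT/NTZ versus WT/PEG Lgr5 was -0.0042, Rnf43 was -0.02 and 5 pathway genes passed. Rspo1 in KO/NTZ versus WT/NTZ was 0.04 without both libraries numbered 110 and 0.06 within one class. The 1 pathway gene called for the difference in NTZ effect went to 0 without both libraries numbered 110, without a filter on low counts and with RLE size factors. Over all genes, calls in KO/NTZ versus KO/PEG were 829, and 101 within one class, 267 with only the groups compared and 1692 with the slope. In WT/NTZ versus WT/PEG they were 154, and 892, 0 and 72. With the slope they went from 11125 to 4881 in KO/PEG versus WT/PEG, from 10791 to 3144 in KO/NTZ versus WT/NTZ and from 0.96% to 9.81% of genes for the difference in NTZ effect. The cause was not tested.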

Other observations

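Other marker lists gave these values at a Benjamini-Hochberg adjusted p under 0.05 in edgeR. Of 3 surface mucous cell genes 2 fell in KO/PEG versus WT/PEG and 0 passed in KO/NTZ versus KO/PEG. Of 4 endothelial genes 2 rose and 2 fell in KO/PEG versus WT/PEG, and 2 fell in KO/NTZ versus KO/PEG. Of 7 proliferation genes 2 rose and 3 fell in KO/PEG versus WT/PEG, and 2 rose in KO/NTZ versus KO/PEG. The summed level of 4 mesothelial genes was 0.448 to 5.3 CPM in WT/PEG and 3.55 to 18.8 CPM in KO/PEG. Msln carried this rise, with medians of 0.485 CPM in WT/PEG and 7.74 CPM in KO/PEG. The median of Upk3b was lower in KO/PEG (0.533 and 0.212 CPM), and those of Wt1 (0 and 0.0529 CPM) and Lrrn4 (0.056 and 0.0675 CPM) were near 0. The summed level of 2 antral genes, Gast and Pdx1, was 0 to 19.5 CPM in WT/PEG and 0.128 to 10.6 CPM in KO/PEG. It was 0.134 to 45.9 CPM in WT/NTZ and 0.468 to 21.8 CPM in KO/NTZ.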
